A study of Mus musculus with 4 samples.

Results

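The genes described here encode the secreted and cell-surface layer of Wnt signalling together with a few of its nuclear outputs. They were taken by symbol: the Wnt ligands, the R-spondins (Rspo), the Frizzled receptors (Fzd), the co-receptors Lrp5 and Lrp6, the receptors Ror1 and Ror2, the antagonists of the Sfrp and Dkk families with Wif1, and Axin2, Lef1 and Tcf7. The arrays measured 48 such genes of 18193 in all, each read from its brightest probe set with a single gene symbol. Tcf7 had no probe set of that kind and is not analysed here. Of the 48, 33 reached the level filter, a mean signal of 47.68 that marks the 40th percentile of all probe sets, and were tested among 12509 genes. The other 15 are dim and are given as signals.

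The study asked which genes depend on PTIP, the product of Paxip1, a subunit of the MLL3 and MLL4 histone methyltransferase complexes. The PTIP -/- cells were immortalized mouse embryonic fibroblasts with both PTIP alleles flanked by loxP sites, infected with a retrovirus that expressed Cre recombinase. The PTIP +/+ cells carried the same floxed alleles and received the empty vector. Both populations went through puromycin selection in medium with serum, and each gave 2 RNAs, numbered 1 and 2. The labels state neither how many embryos or lines the cells came from nor whether a number marks a separate culture or infection, so that p-values measure only the spread between these RNAs.

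Wnt proteins are lipid-modified signals that bind a Frizzled receptor and, for the β-catenin branch, Lrp5 or Lrp6 beside it. Receptor engagement keeps β-catenin from being destroyed, and β-catenin then works with TCF and LEF factors at target genes such as Axin2. R-spondins raise the number of receptors at the surface, Sfrp proteins and Wif1 bind Wnts outside the cell, and the Dickkopf proteins Dkk1, Dkk2 and Dkk4 act on the co-receptors. In mesenchymal cells this pathway is known for restraining fat cell formation and for roles in limb, bone and skin development.

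The arrays were scaled to a common trimmed mean of 500, and their median signals ran from 82.5 to 97.8 in PTIP -/- and from 75.8 to 83.2 in PTIP +/+. Paxip1 itself read 43.5 and 74.6 in PTIP -/- against 1029.5 and 1040.1 in PTIP +/+. All 10 fibroblast or mesenchyme markers passed the filter, with a summed signal of 155035.6 to 173858.7 in PTIP -/- and 182177.1 to 189021.0 in PTIP +/+. The same sums were 155035.6 and 189021.0 in number 2, against 173858.7 and 182177.1 in number 1. Within that list Thy1, a fibroblast surface glycoprotein, read 1500.7 and 239.2 in number 2 against 14822.9 and 16080.1 in number 1, and Pdgfra, a growth factor receptor of mesenchyme, 174.2 and 583.2 against 3563.4 and 5010.1 (PTIP -/- before PTIP +/+ in each pair). Dcn, a matrix proteoglycan, was lower in number 2 too (18.7 and 84.5 against 242.7 and 1266.0) and lower in PTIP -/- by 5.22-fold in number 1 and at least 1.77-fold in number 2. The other 7, among them Vim, the brightest, differed between the numbers by -0.31 to 0.30 on the log2 scale. Marker lists of other cell types had summed signals of 206.2 to 302.5 (5 endothelial genes), 819.1 to 871.6 (6 epithelial), 594.7 to 881.4 (6 of blood) and 324.2 to 345.7 (4 of muscle) in PTIP -/-. In PTIP +/+ these sums were 170.9 to 263.6, 788.6 to 1470.3, 463.9 to 683.9 and 193.5 to 276.1. Summed signals of the 4 neural markers measured were 571.2 and 1555.6 in PTIP -/- and 996.4 and 1272.2 in PTIP +/+. Pecam1, Tie1 and Cdh1, defining genes of endothelium and epithelium, lay below the filter on every array. The brightest marker of each list was Kdr at 107.0 to 172.0, Epcam at 220.4 to 436.1, Csf1r at 218.1 to 278.2, Ckm at 85.2 to 164.4 and Map2 at 243.7 to 1045.2. The keratin gene Krt19 read 84.3 and 345.7 in PTIP -/- against 239.7 and 1038.6 in PTIP +/+, the neuronal tubulin gene Tubb3 269.4 and 79.3 against 291.0 and 51.0, and the lysozyme gene Lyz2 333.3 and 99.9 against 153.4 and 36.0. Thy1, Pdgfra, Dcn, Pecam1, Tie1, Cdh1, Krt19, Tubb3 and Lyz2 were chosen after their values were seen, and the part of these markers in the genotype differences was not tested. In bulk RNA, fewer cells of a type and less RNA per cell cannot be told apart.

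**Figure D1:**
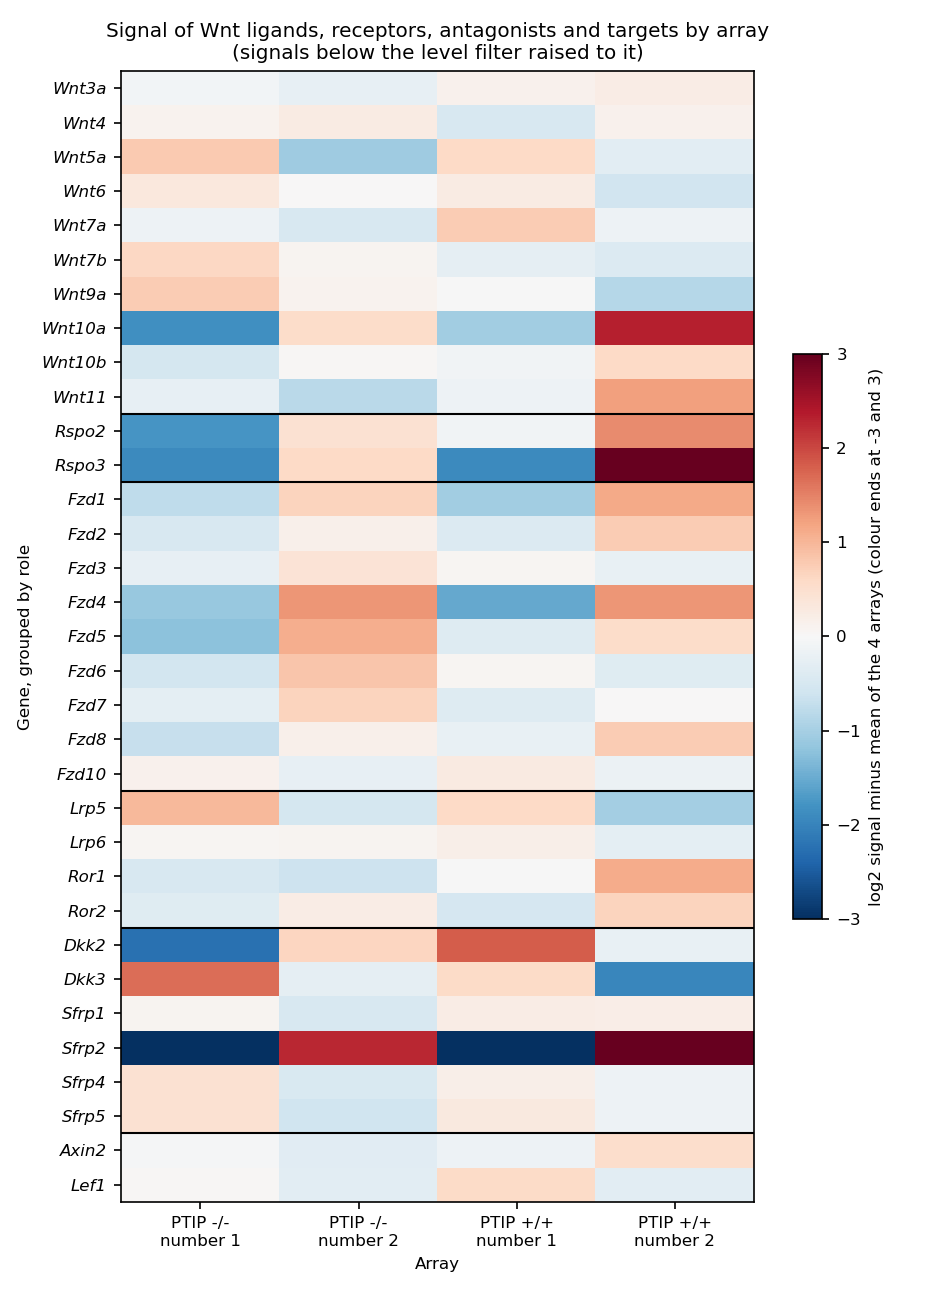
Signals of the 33 tested genes (rows, grouped by role and separated by lines) on the 4 arrays (columns), as log2 signal minus the gene's mean over the arrays, with signals below 47.68 raised to it. Red is above the gene's mean and blue below it. Sfrp2, Rspo3, Wnt10a and Fzd4 are red in number 2 of both genotypes and blue in number 1, while Dkk2 differs between the genotypes in opposite directions within the numbers.

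The comparison of PTIP -/- with PTIP +/+ gave 4 genes that differed by at least 1.5-fold in the same direction within both numbers: the R-spondin gene Rspo2 and the ligand gene Wnt10a were lower in PTIP -/-, and the Dickkopf family gene Dkk3 and the ligand gene Wnt9a were higher. These are 2 of 33 lower and 2 of 33 higher, where 1.95% and 2.78% of all genes tested met the same rules. The lower count was 4 with quantile normalization and 1 with probe sets averaged per gene, and the higher count was 1 with probe sets averaged and 3 with the probe set brightest by linear signal, an alternative chosen after seeing the data. None of the 33 passed limma at an adjusted p under 0.05, and 0 of 12509 genes did (0%). At an unadjusted p under 0.05 the counts were 0 of 33 and 286 of 12509 (2.29%). With the replicate number as a block they were 5 of 33 and 982 of 12509, and none passed adjustment. Of the 33, 22 had a fitted difference below 0, against 43.9% of all genes. Their median log2 difference was -0.15 with every array, -0.10 when taken within number 1 and -0.32 when taken within number 2. The same medians over all genes tested were 0.05, 0.03 and 0.05. Without a block, the limma fit counts the large differences between the numbers as error.

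Among the ligands, Wnt10a, which is known to hold mesenchymal precursors back from the fat lineage in mouse, read 65.8 and 344.2 in PTIP -/- against 112.9 and 1168.5 in PTIP +/+. It was lower in PTIP -/- by 1.72-fold in number 1 and 3.39-fold in number 2. Because the numbers differ more than the genotypes do, the PTIP -/- and PTIP +/+ signals overlap. The fitted log2 difference was -1.27 ± 1.45 (SE), with an adjusted p of 0.999 by limma, and with single arrays left out, which unbalances the numbers, it ran from -2.96 without PTIP +/+ replicate 1 to 0.41 without PTIP +/+ replicate 2.

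Wnt9a read 287.5 and 181.1 in PTIP -/- against 168.2 and 93.7 in PTIP +/+. All PTIP -/- signals of this ligand gene were above all PTIP +/+ signals, by 1.71-fold in number 1 and 1.93-fold in number 2. The mean log2 signal was 7.83 ± 0.47 (SD, n = 2) in PTIP -/- and 6.97 ± 0.60 (SD, n = 2) in PTIP +/+, a difference of 0.86 ± 0.44 (SE, limma adjusted p = 0.999) that ran from 0.44 without PTIP +/+ replicate 2 to 1.28 without PTIP +/+ replicate 1. Its other probe set lay below the filter on all arrays.

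Wnt7b was the other ligand gene with separate groups on the higher side, at 317.5 and 218.6 in PTIP -/- against 172.5 and 156.6 in PTIP +/+. The fitted difference was 0.68 ± 0.31 (SE). Its dim other probe set was at least 1.85-fold higher in number 1 but at least 1.10-fold lower in number 2.

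Wnt11, a ligand that mostly works apart from β-catenin, read 72.2 and 49.0 in PTIP -/- against 77.5 and 200.4 in PTIP +/+. Its groups did not overlap, but the 2 arrays of number 1 were nearly level (1.07-fold lower in PTIP -/-) while number 2 differed by 4.09-fold. Wnt3a, above the filter on all arrays but low, was separated by a smaller step, at 76.2 and 67.4 against 87.8 and 93.2. In all, 4 of 33 genes were lower and 2 of 33 higher in PTIP -/- with no overlap, where 12.1% and 16.6% of all genes were. Those shares are no larger than in the whole table.

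Wnt5a, the main ligand of Ror receptors, read 1367.1 and 380.2 in PTIP -/- against 1207.8 and 641.7 in PTIP +/+, 1.13-fold higher for number 1 but 1.69-fold lower for number 2. Its genotypes overlapped and its direction depended on the number, as it did on 2 of its other probe sets. The remaining tested ligand genes, Wnt4, Wnt6, Wnt7a and Wnt10b, had signals between 57.2 and 221.2 and differed between genotypes by 1.89-fold or less within either number.

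Rspo2, which encodes a secreted amplifier of Wnt receptor signalling, read 458.5 and 2128.6 in PTIP -/- against 1459.2 and 4155.9 in PTIP +/+. The gap was 3.18-fold within number 1 and 1.95-fold within number 2, lower in PTIP -/- both times. The fitted log2 difference was -1.32 ± 0.96 (SE, limma adjusted p = 0.999). Leaving out PTIP -/- replicate 1 gave -0.21 and leaving out PTIP -/- replicate 2 gave -2.43. Leaving out PTIP +/+ replicate 1 gave -2.07, leaving out PTIP +/+ replicate 2 gave -0.56, and averaging the probe sets gave -0.50. A dimmer probe set of the gene, with signals from 79.3 to 182.2, gave 2.30-fold higher within number 1 but 1.49-fold lower within number 2.

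Rspo3, of the same family, could be compared in number 2 alone, since both number 1 arrays lay below the filter at 26.0 in PTIP -/- and 8.8 in PTIP +/+. In number 2 it read 269.9 in PTIP -/- against 1657.7 in PTIP +/+, 6.14-fold lower. Rspo1 was above the filter on 1 array, PTIP +/+ number 2, at 210.4, against 7.4 in PTIP -/- number 2, at least 4.41-fold lower in PTIP -/-. All 3 of these R-spondin genes were thus lower in the PTIP -/- array of number 2, while Rspo4 was dim throughout, from 5.6 to 13.9.

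Of the 6 secreted antagonists tested, 5 had a fitted difference below 0 in PTIP -/-, where 43.9% of all genes did, and 1, Dkk3, above 0. Among the 5, Sfrp4 (-0.02 ± 0.41, SE) and Sfrp5 (-0.14 ± 0.46, SE) were nearly level. The median of the 6 was 0.01 within number 1 and -0.38 within number 2. Dkk3, a Dickkopf family member whose effect on Wnt signalling varies between cell types, read 1876.4 and 488.5 in PTIP -/- against 883.4 and 151.2 in PTIP +/+. Both comparisons put it higher in PTIP -/-, 2.12-fold within number 1 and 3.23-fold within number 2, and its other probe set gave 2.49-fold and 9.11-fold. The fitted log2 difference was 1.39 ± 1.13 (SE, limma adjusted p = 0.999), and it ran from 0.12 without PTIP +/+ replicate 2 to 2.66 without PTIP +/+ replicate 1. Leaving out PTIP -/- replicate 1 gave 0.42, leaving out PTIP -/- replicate 2 gave 2.36, and the other probe set gave 2.25.

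Sfrp2, a Wnt-binding antagonist of mesenchyme, read 2636.3 in PTIP -/- against 14872.3 in PTIP +/+ within number 2, 5.64-fold lower. In number 1 the signals were 38.3 in PTIP -/- and 50.0 in PTIP +/+, at or near the filter, so that the genotype difference there was at least 1.05-fold. Dkk2, an antagonist that acts on Lrp co-receptors, had opposite directions: 82.7 in PTIP -/- against 1367.9 in PTIP +/+ within number 1, 16.5-fold lower, and 608.1 against 336.8 within number 2, 1.81-fold higher. The genes Sfrp1, Sfrp4 and Sfrp5 had signals between 63.6 and 247.4 and differed by 1.60-fold or less within either number. Sfrp1 had no overlap between genotypes on its brightest probe set, at 93.4 and 63.6 in PTIP -/- against 102.8 and 101.9 in PTIP +/+, but the mean of its probe sets lay on the other side of 0, at 0.11.

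Within number 2, a gap of at least 2-fold towards lower signal in PTIP -/- was seen for 5 of 33 genes (Ror1, Rspo3, Sfrp2, Wnt10a and Wnt11) and towards higher signal for 2 (Dkk3 and Fzd6), where 4.28% and 5.75% of all genes were. Within number 1 the counts were 2 lower (Dkk2 and Rspo2) and 1 higher (Dkk3), where 2.09% and 2.57% of all genes were. Whether the genotype difference itself differed between the numbers could not be tested, because each comparison sets 1 array against 1.

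**Figure D2:**
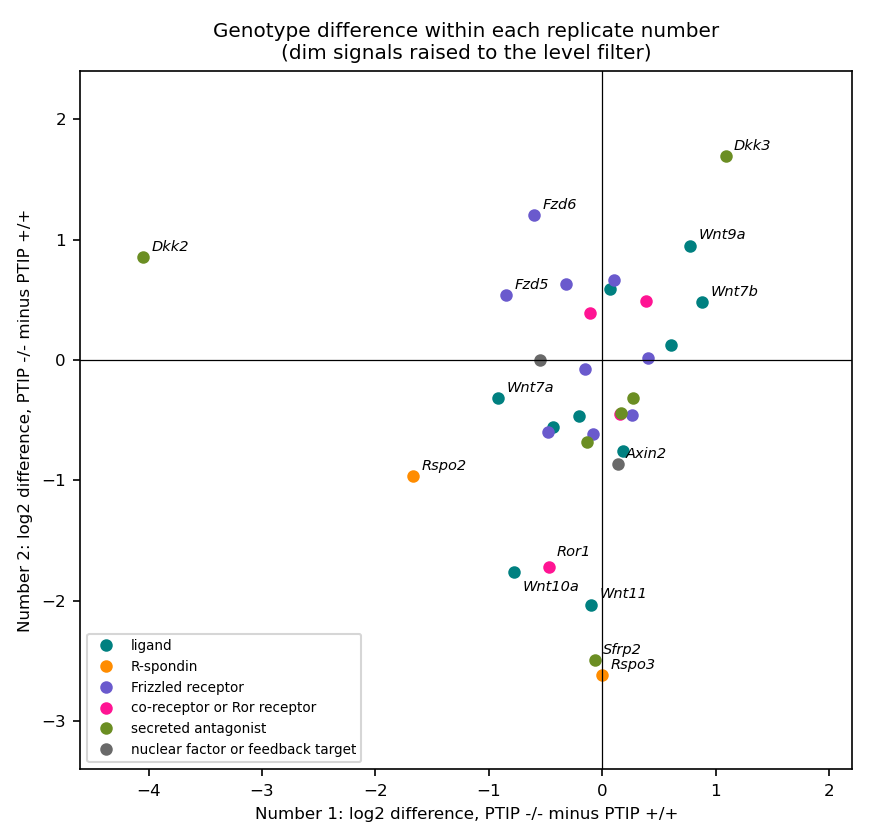
Log2 difference of PTIP -/- minus PTIP +/+ within number 1 (horizontal) and number 2 (vertical) for the 33 tested genes, coloured by role, with signals below 47.68 raised to it. Dkk3 and Wnt9a lie above 0 and Rspo2 and Wnt10a below 0 on both axes, while Dkk2 and Fzd6 lie on opposite sides.

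Receptor genes went in both directions between genotypes. Over the 9 Frizzled genes tested, which encode the seven-pass Wnt receptors, the median log2 difference was -0.10, with 5 below and 4 above 0, and the median absolute difference was 0.21, against 0.24 over all genes. Fzd4, whose product also serves the ligand Norrin in vessels of the eye, read 320.1 and 1764.4 in PTIP -/- against 241.7 and 1748.4 in PTIP +/+, 1.32-fold and 1.01-fold higher. Fzd2 and Fzd8 were lower in PTIP -/- within both numbers, by 1.06-fold and 1.53-fold for Fzd2 and by 1.40-fold and 1.52-fold for Fzd8, but a dimmer probe set of Fzd8 read 161.3 and 166.4 in PTIP -/- against 87.4 and 160.7 in PTIP +/+, in the other direction. Fzd7 was higher by 1.08-fold and 1.59-fold. Fzd6 read 568.4 and 1480.1 in PTIP -/- against 861.3 and 642.9 in PTIP +/+, 1.52-fold lower for number 1 but 2.30-fold higher for number 2, and Fzd5 had the same pattern of signs at 1.80-fold and 1.45-fold. For Fzd3 the probe set mattered: the one used gave 1.25-fold lower and 1.55-fold higher, while another, brighter by its mean linear signal, read 95.5 and 180.1 in PTIP -/- against 17.3 and 66.2 in PTIP +/+, at least 2.00-fold and 2.72-fold higher.

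The co-receptor gene Lrp6 read 1496.6 and 1530.9 in PTIP -/- against 1616.2 and 1168.8 in PTIP +/+, a fitted difference of 0.14 ± 0.29 (SE). A dimmer probe set of Lrp6 read 303.5 and 244.6 against 225.0 and 196.0, without overlap, 1.35-fold and 1.25-fold higher in PTIP -/-. Lrp5, a close relative of Lrp6, was 1.30-fold and 1.40-fold higher in PTIP -/- within the numbers. Ror2, a receptor tyrosine kinase for Wnt5a, differed by 1.11-fold and 1.37-fold in opposite directions. Ror1 read 52.0 and 22.0 in PTIP -/- against 72.2 and 156.9 in PTIP +/+, without overlap, but a different probe set read 65.0 and 68.6 against 54.0 and 38.8, also without overlap and in the other direction. The direction for Ror1 is therefore not settled by these arrays. Its brightest probe set also passed the level filter only through the PTIP +/+ signals.

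Axin2, a feedback inhibitor and common readout of β-catenin signalling, read 94.6 and 76.3 in PTIP -/- against 86.2 and 138.8 in PTIP +/+, 1.10-fold higher for number 1 but 1.82-fold lower for number 2. Lef1, a partner of β-catenin on DNA, read 60.7 in PTIP -/- against 88.6 in PTIP +/+ within number 1, 1.46-fold lower, and lay below the filter on both arrays of number 2. Taken by genotype, its PTIP -/- mean lay below the filter and its PTIP +/+ mean above it, so the filter favoured a lower value in PTIP -/-.

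**Figure D3:**
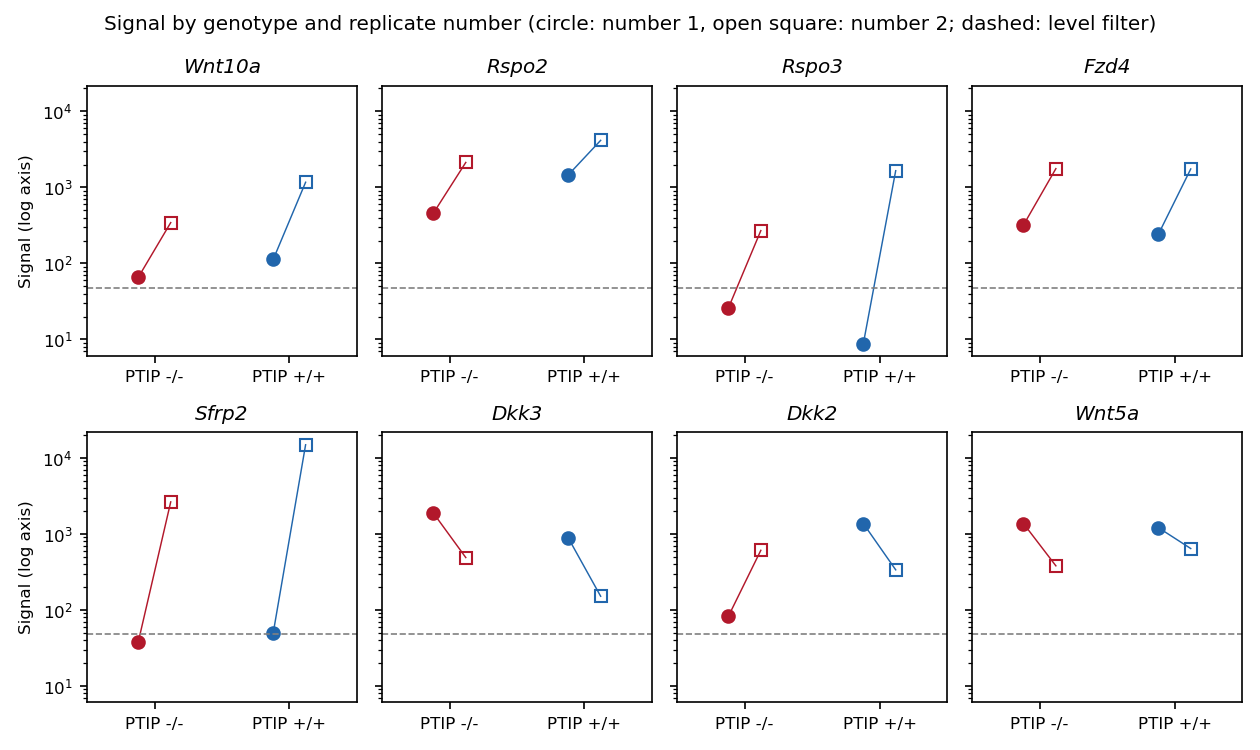
Signal (log axis) of 8 genes by genotype, PTIP -/- left and PTIP +/+ right, with a filled circle for number 1, an open square for number 2 and a dashed line at the level filter of 47.68. Lines join the 2 RNAs of a genotype and carry no error. In Sfrp2, Rspo3, Wnt10a and Fzd4 both lines climb towards number 2, in Dkk3 and Wnt5a both descend, and in Dkk2 they run in opposite directions.

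Between the replicate numbers, 22 of the 33 genes did not overlap. Higher in number 2 were 13 (39.4%, against 25.5% of all genes) and lower 9 (27.3%, against 29.7%). Wnt4 was among the 13 at 1.10-fold in PTIP -/- and 1.53-fold in PTIP +/+. Its other probe set went the other way, at least 2.93-fold and 3.15-fold lower in number 2. Of the 9 Frizzled genes tested, 8 had a fitted difference above 0 in number 2, with a median of 0.90 on the log2 scale, where 5777 of all 12509 genes did, with a median of -0.05. Fzd3 and Fzd6 were among the 8 although they were lower in number 2 within PTIP +/+. Of the 33 genes, 6 were at least 2-fold higher in number 2 within both genotypes (Fzd1, Fzd4, Rspo2, Rspo3, Sfrp2 and Wnt10a) and 2 at least 2-fold lower (Dkk3 and Lrp5), where 4.13% and 2.92% of all genes were. The level filter took the mean over all arrays. Rspo3 and Sfrp2 passed it only through their number 2 signals, and Lef1 only through number 1. For these genes the filter itself favoured a difference between the numbers. With limma 1 of 33, Fzd4, was called higher and 0 lower, where 0.488% and 0.168% of all genes were called. At an unadjusted p under 0.05 there were 15 of the 33, against 20.4% of all genes. Of the markers given above, Thy1, Pdgfra, Dcn, Tubb3 and Lyz2 were lower in number 2 and Krt19 was higher. The epithelial list went both ways, since Epcam, its brightest gene, was lower in number 2 (291.5 and 220.4 against 436.1 and 356.0). So did the blood list, where Cd68, also chosen after its values were seen, was higher (107.6 and 112.1 against 93.4 and 73.0). The part of these markers in this contrast was not tested.

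Sfrp2 had the widest gap between the numbers of the 33 genes on the log2 scale. It read 2636.3 in PTIP -/- and 14872.3 in PTIP +/+ of number 2, against 38.3 and 50.0 in number 1. The mean log2 signal was 12.61 ± 1.76 (SD, n = 2) in number 2 and 5.45 ± 0.27 (SD, n = 2) in number 1, a fitted difference of 7.16 ± 0.87 (SE, limma adjusted p = 0.063). The number 1 signals lie below or next to the filter, so the size of this difference is uncertain. With dim signals raised it was at least 55.3-fold in PTIP -/- and 297.4-fold in PTIP +/+. The call was missed in the fit as designed, and it was reached with a stricter filter, with dim signals raised, with a variance trend and without PTIP -/- replicate 2, its adjusted p running from 0.0289 to 0.236 over the alternatives.

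Fzd4 was the 1 gene called. It read 1764.4 in PTIP -/- and 1748.4 in PTIP +/+ of number 2, against 320.1 and 241.7 in number 1, 5.51-fold higher in PTIP -/- and 7.23-fold higher in PTIP +/+. Both other probe sets of Fzd4 gave 3.96-fold or more in each genotype. The fitted log2 difference was 2.66 ± 0.23 (SE, limma adjusted p = 0.0396), and its adjusted p ran from 0.0135 to 0.185 over the alternatives, with the call lost without the level filter, over averaged probe sets, with the genotype as a block, and when any single array was left out.

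Other Frizzled genes followed with smaller steps. Fzd1 read 1679.7 in PTIP -/- and 2306.6 in PTIP +/+ of number 2, against 617.5 and 515.1 in number 1 (log2 1.80 ± 0.26, SE, limma adjusted p = 0.0835). Fzd5 was 5.02-fold higher in PTIP -/- and 1.92-fold higher in PTIP +/+, and Fzd2, Fzd7 and Fzd8 were 1.32-fold to 2.24-fold higher. Fzd6 was 2.60-fold higher in PTIP -/- and 1.34-fold lower in PTIP +/+. Fzd10 was the 1 Frizzled gene with a fitted difference below 0, at -0.40 ± 0.20 (SE).

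The promoters of Sfrp2, Fzd4 and Fzd1 are shown because these are the genes of the set that were called between the numbers under at least 1 setting. Each is 300 bases of the mouse assembly GRCm38.p6 from RefSeq, in the direction of the gene, from 250 bases before to 50 after a start. Sfrp2 lies at chr3:83766071-83766370 on the + strand, Fzd4 at chr7:89404116-89404415 on the + strand and Fzd1 at chr5:4758167-4758466 on the - strand. Capitals mark the GC box GGGCGG on either strand, with neighbouring boxes free to overlap.
Sfrp2: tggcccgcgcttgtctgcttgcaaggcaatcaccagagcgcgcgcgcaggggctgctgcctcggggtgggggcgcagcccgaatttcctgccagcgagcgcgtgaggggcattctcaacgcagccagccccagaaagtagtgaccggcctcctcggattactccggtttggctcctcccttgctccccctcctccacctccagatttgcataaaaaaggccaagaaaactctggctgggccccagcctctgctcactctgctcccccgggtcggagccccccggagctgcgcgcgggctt
Fzd4: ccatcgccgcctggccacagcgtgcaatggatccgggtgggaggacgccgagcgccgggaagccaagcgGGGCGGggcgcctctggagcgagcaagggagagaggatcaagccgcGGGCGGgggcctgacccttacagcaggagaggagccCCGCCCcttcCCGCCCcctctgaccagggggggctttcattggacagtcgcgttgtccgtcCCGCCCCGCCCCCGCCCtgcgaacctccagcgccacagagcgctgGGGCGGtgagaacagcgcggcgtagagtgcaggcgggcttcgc
Fzd1: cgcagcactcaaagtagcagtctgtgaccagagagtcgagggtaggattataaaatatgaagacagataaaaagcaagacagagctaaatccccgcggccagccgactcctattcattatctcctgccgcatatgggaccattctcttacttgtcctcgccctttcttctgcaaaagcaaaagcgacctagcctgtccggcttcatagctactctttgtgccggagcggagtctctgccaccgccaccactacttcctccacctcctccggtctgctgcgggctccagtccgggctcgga
Fzd4 holds 8 such boxes, Sfrp2 and Fzd1 0. Of 38 promoters of the set in the table, which belong to 32 genes, 29 hold at least 1 (76.3%), and 35.7% of all 32851 promoters do. The letters CTTTGAA or CTTTGAT, a core that TCF and LEF factors bind, were searched on both strands and stand in none of the 3 windows. They stand in 3 of the 38 (of Dkk1, Wnt11 and Wnt5b), 7.89%, and in 8.65% of all promoters. A match is a description of the letters and says nothing of binding.

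The R-spondin genes Rspo2 and Rspo3 were higher in number 2, while Rspo1 was above the filter there in PTIP +/+ alone and Rspo4 on no array. Rspo3 read 269.9 in PTIP -/- and 1657.7 in PTIP +/+ of number 2, against 26.0 and 8.8 in number 1, at least 5.66-fold and 34.8-fold higher and at least 14.0-fold over both genotypes (limma adjusted p = 0.118). Rspo2 was 4.64-fold higher in PTIP -/- and 2.85-fold higher in PTIP +/+, although its dimmer probe set was 1.83-fold lower in PTIP -/- and 1.87-fold higher in PTIP +/+. Wnt10a, among the ligands, was 5.23-fold and 10.3-fold higher (log2 2.88 ± 0.68, SE, limma adjusted p = 0.151).

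Wnt5a and Dkk3 ran the other way. Wnt5a read 380.2 in PTIP -/- and 641.7 in PTIP +/+ of number 2, against 1367.1 and 1207.8 in number 1, 3.60-fold and 1.88-fold lower (log2 -1.38 ± 0.32, SE, limma adjusted p = 0.15). Dkk3 was 3.84-fold lower in PTIP -/- and 5.84-fold lower in PTIP +/+ (limma adjusted p = 0.207). Lrp5 read 86.5 in PTIP -/- and 61.6 in PTIP +/+ of number 2, against 245.2 and 187.9 in number 1 (log2 -1.56 ± 0.28, SE, limma adjusted p = 0.11). Lrp6, differed by 1.02-fold in PTIP -/- and 1.38-fold in PTIP +/+. Sfrp4 and Sfrp5 were 1.25-fold to 2.06-fold lower in number 2.

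Signals of the 2 numbers did not overlap for 13 of 33 genes on the higher side and 9 of 33 on the lower side, where 25.5% and 29.7% of all genes were separated. Axin2, Dkk2, Fzd3, Fzd6, Lrp6, Ror1, Sfrp1, Wnt11, Wnt3a, Wnt7b and Wnt9a overlapped. The median absolute log2 difference between arrays, with dim signals raised, was 0.67 (PTIP -/-) and 0.91 (PTIP +/+) between the numbers for the 33 genes, against 0.38 and 0.41 for all genes. Between genotypes it was 0.32 in number 1 and 0.60 in number 2 for the 33, against 0.22 and 0.32 for all genes. Arrays of a genotype thus lay farther apart for these genes than arrays of a number.

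**Figure D4:**
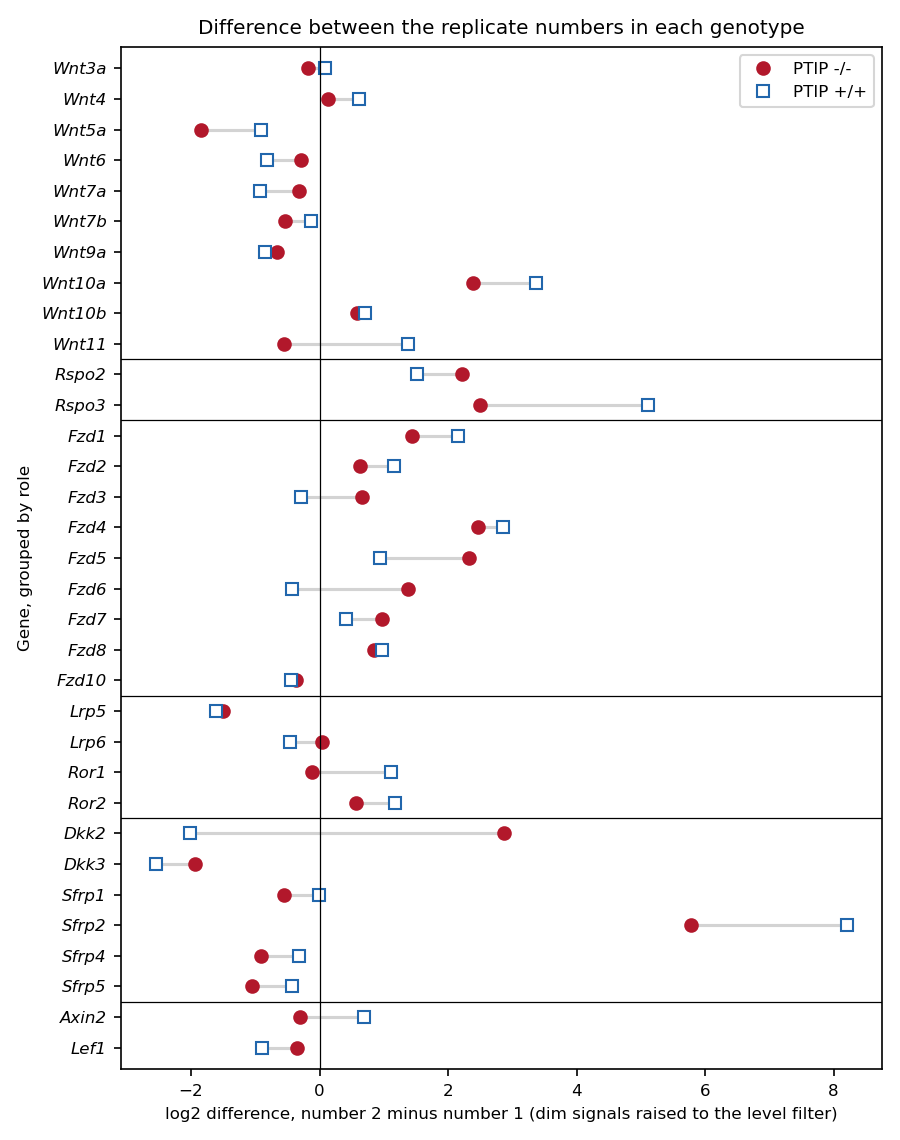
Log2 difference of number 2 minus number 1 in PTIP -/- (red circles) and PTIP +/+ (open blue squares) for the 33 tested genes, grouped by role, with signals below 47.68 raised to it. Grey lines join the 2 genotypes and are no error bars. Most Frizzled genes lie right of 0, and Sfrp2, at the far right, has its PTIP +/+ value beyond its PTIP -/- value.

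Genes elsewhere in the pathway went in both directions with genotype. Over 6 lists that cover other surface regulators, secretion, the destruction complex, nuclear partners, planar polarity and reported target genes, 117 of 136 genes were tested, 57 lower and 60 higher in PTIP -/-, around a median log2 difference of 0.01. Of the 117, 6 differed by at least 1.5-fold towards lower signal in each number (5.13%, against 1.95% of all genes), 2 towards higher (1.71%, against 2.78%), and limma called 0, as it did over all genes. Ctnnb1, β-catenin itself and the brightest of the nuclear list, read 12744.7 and 13675.7 in PTIP -/- against 12810.5 and 13342.9 in PTIP +/+. Csnk1a1, a kinase of the destruction complex and the brightest of that list, read 7072.1 and 7069.0 against 6781.8 and 6310.5. Both were nearly level. Over these lists as wholes the median absolute log2 difference was 0.17 (nuclear) and 0.26 (destruction complex), against 0.24 over all genes. The brightest genes of the secretion, polarity and target lists, Vps35, Rac1 and Fn1, differed by 1.21-fold or less within each number.

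The 6 genes lower in PTIP -/- included Wnt regulators outside the cell. Igfbp4, a secreted protein that binds insulin-like growth factors and can bind Wnt receptors, read 2041.9 and 1747.5 in PTIP -/- against 6940.0 and 5421.5 in PTIP +/+. Trabd2b, which encodes a protease that inactivates Wnt proteins, read 231.1 and 167.8 against 479.8 and 590.1 (log2 -1.43 ± 0.31, SE). Adgra2, a receptor that works with Reck in Wnt7 signalling, read 1481.7 and 173.0 against 2676.5 and 561.3. It was 1.81-fold and 3.24-fold lower within the numbers, but its genotypes overlapped (log2 -1.28 ± 1.35, SE).

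Among reported Wnt targets, 18 of 29 were lower, with a median of -0.17 that was -0.15 within number 1 and -0.04 within number 2. Over all genes 43.9% were lower, with a median of 0.05. Ccnd1, cyclin D1, read 3683.5 and 5977.2 in PTIP -/- against 11425.1 and 15736.4 in PTIP +/+. Plaur, the urokinase receptor, was 1.58-fold and 1.51-fold lower, and Fst, an activin antagonist, at least 3.08-fold and 23.1-fold lower. On the higher side, the reported target Sox9, a cartilage factor, read 86.2 and 98.4 against 49.3 and 28.8. Its PTIP +/+ signal of number 2 lay below the filter, so the size of the difference there is a lower bound. By genotype, the mean of Sox9 lay above the filter in PTIP -/- and below it in PTIP +/+. The filter thus favoured a higher value in PTIP -/- for this gene. Gpc6, a glypican of the surface list and not a listed target, was 1.84-fold and 1.58-fold higher. These genes also answer to other pathways. Serpinf1, the brightest of the surface list and reported to bind Lrp6, was 1.41-fold and 4.29-fold lower.

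Between the numbers, limma called 1 of these 117 genes higher (0.855%, against 0.488% of all genes) and 0 lower (0.168% of all genes). That gene was Msx1, a homeobox factor of limb and face, which read 3605.1 in PTIP -/- and 8578.5 in PTIP +/+ of number 2, against 173.3 and 216.0 in number 1 (log2 4.85 ± 0.47, SE, limma adjusted p = 0.0497). Its adjusted p ran from 0.0188 to 0.175 over the alternatives, and the call was lost with centred arrays (0.0509), without the level filter (0.159), with probe sets averaged (0.069), and without PTIP -/- replicate 1 (0.17), PTIP +/+ replicate 1 (0.175) or PTIP +/+ replicate 2 (0.0837). Wls, which escorts Wnt proteins to the surface, had 6802.7 and 6173.6 in number 2 against 4012.3 and 3162.8 in number 1 (limma adjusted p = 0.169). Reck, a membrane partner of Adgra2, read 1860.0 in PTIP -/- and 3063.7 in PTIP +/+ of number 2, against 1031.1 and 1038.7 in number 1. Of the 117 genes, 52 had a fitted difference below 0 in number 2 and 65 above, with a median of 0.06. The surface list (13 of 18 below 0, median -0.46) and the target list (19 of 29, median -0.29) leaned lower. Nkd2, of the destruction complex list, was 5.29-fold lower in PTIP -/- and 14.9-fold lower in PTIP +/+, and Adgra2 was 8.56-fold and 4.77-fold lower. For this contrast Msx1, Wls, Reck, Nkd2 and Adgra2 were chosen after their values were seen.

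The 15 dim genes were Dkk1, Dkk4, Fzd9, Rspo1, Rspo4, Wif1, Wnt1, Wnt16, Wnt2, Wnt2b, Wnt3, Wnt5b, Wnt8a, Wnt8b and Wnt9b. Dkk4, Rspo4, Wif1, Wnt2, Wnt3 and Wnt8a lay below the filter on every array, so no difference can be read for them. Fzd9, Wnt16, Wnt2b and Wnt8b passed it on 1 or 2 arrays, with highest signals of 65.8, 54.0, 74.4 and 89.5. Wnt9b was above it in both PTIP -/- arrays and below it in both PTIP +/+ arrays, at 106.2 and 55.6 against 8.2 and 13.3, at least 2.23-fold higher in number 1 and at least 1.17-fold higher in number 2. Its other probe set was dim on all arrays. Wnt1 had the same pattern closer to the filter, at 50.9 and 61.0 against 8.8 and 33.8. Wnt5b passed on the PTIP +/+ array of number 2 alone, at 132.4, against 22.5 in PTIP -/-, and Dkk1 on the PTIP +/+ array of number 1 alone, at 89.4, against 43.3 in PTIP -/-.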

How the data were processed

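RNA samples 1 and 2 from each of the PTIP -/- and PTIP +/+ cells were hybridised to 4 Affymetrix arrays of 45101 probe sets. The authors deposited linear intensity values, and RMA is the method named, without a version, by the submitters' processing notes. The deposited intensities are linear and share a mean of 500 after trimming 2% at each end, which is not RMA's usual output. How background and probes were treated is therefore not settled. The tests used log2 intensities, with 0.1 in place of 1 zero. Without 64 control probe sets, 34945 probe sets had 1 symbol, 932 several and 9160 none, and 34741 symbols were updated by gene number from RefSeq (GRCm38.p6). Each gene was its probe set with the highest mean log2 intensity.

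Genotypes and replicate numbers were each compared in limma 3.58.1 (R 4.3.3; lmFit and eBayes, 4 arrays, 2 residual degrees of freedom, no covariate), with Benjamini-Hochberg adjustment over 12509 genes; errors are SEs of that fit. Folds raise signals below 47.68 to it and are then "at least". Comparisons within 1 number set 1 array against 1 and carry no test. The genes and lists were chosen with earlier results of these data known. Every member was accounted for. Of the wider pathway lists, genes at least 1.5-fold apart the same way within both numbers and the brightest of each list were named, as were Paxip1 and the brightest marker of each cell type list; the report says which others were chosen after their values were seen. The fit was tested on simulated data that held a difference between genotypes or between numbers, never both. That test therefore does not show how the genotype fit performs where the numbers differ, as they do here. Alternatives were other scalings, filters, probe-set rules, moderation, blocks and leaving out arrays. The number of arrays limits the precision.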

Additional observations from a re-analysis of the deposited data

Results flagged for a closer look

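Dkk2 and Fzd6 were picked out because the difference between PTIP -/- and PTIP +/+ had opposite signs, by at least 1.5-fold each way, in the 2 replicate numbers. For Dkk2 the log2 difference was -4.05 within number 1 and 0.85 within number 2. For Fzd6 it was -0.60 within number 1 and 1.20 within number 2. No test of how the numbers differ was made, since each value rests on 1 array against 1. Of the other probe sets of Fzd6, 1 gave -0.13 and 0.72 and the other 1.05 and -0.06.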

How the results depend on the processing

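No gene passed the genotype threshold under any alternative tried, over all genes or among the Wnt genes, with 164 to 982 of the genes tested at an unadjusted p under 0.05. The median genotype difference of the Wnt genes was -0.27 with quantile normalization and -0.04 with probe sets averaged per gene, and ran from -0.38 to -0.05 with each array left out. That of the wider lists was -0.02 with centred arrays and 0.07 with probe sets averaged per gene, and ran from -0.09 to 0.08 with each array left out.

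Genes called between the numbers, 82 as designed, came to 127 with quantile normalization, 0 without the level filter, 145 with the stricter filter at the 60th percentile, 226 with dim signals raised to the filter, 51 with probe sets averaged per gene, 284 with a variance trend, and 0 to 85 with each array left out (0 without PTIP -/- replicate 1, PTIP +/+ replicate 1 or PTIP +/+ replicate 2). Wnt genes called, 1 as designed, came to 0 without the filter, with probe sets averaged per gene and with genotype as the block. They came to 2 with the stricter filter and with dim signals raised, and to 3 with a variance trend. The median of the Wnt genes between the numbers, 0.19 as designed, was 0.40 with quantile normalization, 0 without the filter, 0.78 with the stricter filter, 0.38 with dim signals raised, 0.29 with probe sets averaged per gene, 0.38 with the brightest probe set by linear signal (an alternative chosen after seeing the data), and -0.02 to 0.19 with each array left out.

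Directions turned for Sfrp1 between genotypes (0.11) and for Lef1 (0.01), Wnt4 (-1.54) and Wnt7a (0.26) between the numbers with probe sets averaged per gene, and for Wnt10a between genotypes without PTIP +/+ replicate 2 (from -2.96 to 0.41 over the arrays left out). Fewer genes are tested with the stricter filter and fewer arrays when 1 is left out; other causes were not tested. The labels do not say that a number pairs the RNAs. Deviations of same-numbered arrays from their genotype means correlated at 0.686 across 12509 genes, and with the replicate block 982 genes had an unadjusted p under 0.05 between genotypes, 0 passing adjustment, and 80 passed between the numbers with genotype as the block.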
